A study of Mus musculus with 12 samples.

Results

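The genes followed here were 5 members of a cluster, Cyp2c29, Cyp2c55, Cyp2c65, Cyp2c66 and Cyp2c68, which encode cytochrome P450 enzymes of the Cyp2c family, in RNA of the mouse duodenum. They are 5 of the 26121 genes that both deposited count tables list, and each of the 5 was read in all 12 libraries and passed the filter on low counts in every comparison. The genes were chosen from earlier results of these data, namely the comparison of high-fat diet with chow and that of PCN with vehicle. Their differences in those comparisons are therefore given as a description. The libraries came from C57BL/6N mice that entered their diet at 6 weeks of age and stayed on it for 18 weeks, and they fall into 4 groups of 3. The Chow group ate regular chow, and the HFD group ate a high-fat diet that brings on obesity, and the labels give no treatment for either. The HFD Vehicle group ate the same diet and was then injected with the vehicle daily for 4 days, and mice of the HFD PCN group received pregnenolone 16α-carbonitrile (PCN) at 50 mg/kg into the peritoneum on the same schedule. PCN is a steroid that binds the rodent pregnane X receptor (PXR), the nuclear receptor encoded by Nr1i2. No group ate chow and received PCN, so the response to PCN was read on the high-fat diet only. The labels number each library and say nothing more on whether the libraries are separate animals, so the p-values measure the spread between these samples, which may be technical.

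Cytochrome P450 enzymes of the Cyp2c family sit in the membrane of the endoplasmic reticulum, where they take electrons from the reductase Por and put an oxygen atom into drugs, steroids and fatty acids. Several of them turn arachidonic acid into epoxides that act as local lipid signals and that epoxide hydrolases such as Ephx1 and Ephx2 convert to diols. In the small intestine such enzymes stand in the absorptive enterocytes of the villus and act on compounds as they are taken up. PXR and the related receptor CAR (Nr1i3) are known to raise the transcription of Cyp3a, Cyp2b and Cyp2c genes when a ligand is present, by binding DNA as partners of the retinoid X receptor at pairs of hexamers such as AGGTCA.

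In GRCm38 the Cyp2c genes form a cluster on chromosome 19, where GENCODE release M21 annotates 16 Cyp2c entries, 14 of them protein coding, between 38976647 and 40187333. The 5 genes span 734.0 kb of it. On the plus strand follow Cyp2c55 (ENSMUSG00000025002, 39007019 to 39042693), Cyp2c65 (ENSMUSG00000067231, 39061015 to 39093944), Cyp2c66 (ENSMUSG00000067229, 39113898 to 39187072) and Cyp2c29 (ENSMUSG00000003053, 39269405 to 39330713). Cyp2c68 (ENSMUSG00000074882, 39688834 to 39741054) lies on the minus strand. The annotated gene body of Cyp2c29 begins inside that of the pseudogene Cyp2c53-ps, and they overlap by 5581 bases.

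The bases just before the RefSeq start of transcription are shown for the 5 genes because they differ in how far their RNA moved while lying in 1 cluster. For Cyp2c29 the RefSeq start, 39287085, lies inside the GENCODE gene body, which begins at 39269405. The bases before that GENCODE start were not searched. Each run holds the 160 bases that end at the base before the RefSeq start site (GRCm38.p6), 5′ to 3′ in the direction of the gene. They are chr19:39006859-39007018 for Cyp2c55, chr19:39060846-39061005 for Cyp2c65, chr19:39113738-39113897 for Cyp2c66 and chr19:39286925-39287084 for Cyp2c29, all on the plus strand, and chr19:39741102-39741261 on the minus strand for Cyp2c68. Capitals mark CAAAGTC, the core of the motif that the liver and gut receptor HNF4A is known to bind, and AGGTCA, a single nuclear receptor hexamer.
Cyp2c55: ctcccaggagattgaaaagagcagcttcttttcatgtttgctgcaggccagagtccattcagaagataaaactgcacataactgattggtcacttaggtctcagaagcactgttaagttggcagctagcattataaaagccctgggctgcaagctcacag
Cyp2c65: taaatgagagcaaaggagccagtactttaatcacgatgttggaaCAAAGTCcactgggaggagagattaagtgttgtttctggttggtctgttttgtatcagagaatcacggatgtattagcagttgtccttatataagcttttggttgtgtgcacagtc
Cyp2c66: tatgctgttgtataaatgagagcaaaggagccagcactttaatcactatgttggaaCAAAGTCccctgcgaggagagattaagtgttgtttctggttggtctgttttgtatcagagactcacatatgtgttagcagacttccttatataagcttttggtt
Cyp2c29: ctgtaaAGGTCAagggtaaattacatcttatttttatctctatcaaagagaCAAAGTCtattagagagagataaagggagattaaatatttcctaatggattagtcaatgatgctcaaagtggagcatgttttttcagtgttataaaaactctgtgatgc
Cyp2c68: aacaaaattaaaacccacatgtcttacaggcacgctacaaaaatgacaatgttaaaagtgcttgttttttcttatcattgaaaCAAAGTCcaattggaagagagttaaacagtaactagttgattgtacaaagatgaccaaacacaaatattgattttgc

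CAAAGTC, which was chosen for the search after these sequences were seen, begins 116 bases before the start of Cyp2c65, 104 before that of Cyp2c66, 109 before that of Cyp2c29 and 77 before that of Cyp2c68. It was not found in the 250 bases before Cyp2c55 on either strand. The same 7 letters stand on one strand or the other in 3.84% of 32851 RefSeq promoters of the same length, and in 7 of 9 start sites of other Cyp2c genes. AGGTCA was found once, 154 bases before the start of Cyp2c29, and stands in 14% of promoters. The hexamers AGTTCA and GGGTCA were found in none of the 5, against 11.8% and 11.6% of promoters. Pairs of the 3 hexamers in the arrangements that PXR and CAR are known to bind, direct repeats with a spacer of 3 or 4 bases and everted repeats with a spacer of 6, were found in none of the 5 and in 0.0244%, 0.0517% and 0.0183% of promoters. These letters were searched in this short window only.

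The 5 genes are similar in sequence, which bears on how reads can be told apart. Cyp2c65 and Cyp2c66 have the same base at 96.33% of 1470 aligned coding bases and at 94.12% of 221 aligned promoter bases. For the other pairs the coding identity was 70.9% to 77.41% and the promoter identity 60.19% to 68.34%. Of all 75-base stretches of the transcript, 11.38% of those of Cyp2c65 and 13.56% of those of Cyp2c66 also occur in another gene, for the most part in each other. For Cyp2c68 the share was 28.48%, of which 23.21% occur in Cyp2c40, a neighbour that was itself listed at no more than 0.286 CPM in any library. For Cyp2c29 it was 0.527%, and for Cyp2c55 no 75-base stretch was shared. The read length and the treatment of reads with several matches are not given in the sources used here, so the level of Cyp2c68 and the split of reads between Cyp2c65 and Cyp2c66 are uncertain. The searched transcripts of Cyp2c29 and Cyp2c55 consist almost wholly of 75-base stretches of their own. For Cyp2c29 that transcript has 1783 bases while the union of its exons has 3061, and the rest was not searched.

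Total counts ranged from 4676718 in HFD Vehicle 55 to 20684369 in HFD PCN 5, with a median of 15404357. The extraction protocol in the labels names liver whereas the tissue label is duodenum, so hepatocyte markers were checked. The 5 of 9 that stand in both tables summed to between 0.493 and 1.90 CPM. Of the other 4, Cyp2e1 passed the filter on low counts in HFD PCN against HFD Vehicle. Its log2 fold change was 0.28, with overlapping libraries and no call by edgeR. The rest of the 4 were not analysed here. The 6 markers of the proximal small intestine summed to between 344 and 1530 CPM. The 12 enterocyte markers summed to 12776 CPM in HFD Vehicle 23, 20687 CPM in HFD 4 and 28009 to 39791 CPM in the other libraries. HFD Vehicle 23 also stood apart in mitochondrial ribosomal RNA, with 33.65% of its counts against 8.69% to 19.2% elsewhere. The chaperone gene Hsp90aa1, the 1 of 5 heat shock markers that both tables list, had 1814 and 1479 CPM in the HFD Vehicle libraries 23 and 50, against 114 CPM in library 55 of that group and 63.4 to 428 CPM in the other groups. Of the 3 heat shock genes tested in HFD PCN against HFD Vehicle, all had negative log2 fold changes, from -4.99 for Hsph1 to -2.85 for Hsp90aa1, with an unadjusted p under 0.05 and no call by edgeR. Over all genes 17.9% had an unadjusted p under 0.05 there. So 2 of the 3 vehicle libraries stood apart, and results against the vehicle group were also computed without them. Paneth cell markers summed to 666 to 2972 CPM in the HFD Vehicle libraries and to 274 to 871 CPM in the others. Pancreatic acinar markers summed to 45.1 to 119 CPM in the Chow libraries, 4.34 to 21.1 in HFD, 10.8 to 70.6 in HFD Vehicle and 2.33 to 18.1 in HFD PCN. The part of these differences in the results on the Cyp2c genes was not tested. In these bulk samples, fewer cells that express a gene and less RNA per cell cannot be told apart.

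Levels are given in CPM, the count of a gene per 1000000 counts of the library after TMM scaling of all 12 libraries together. Cyp2c29, an epoxygenase of liver and gut, had the widest range of the 5. It stood at 115, 121 and 156 CPM in Chow 8, 17 and 19 (948, 842 and 2572 counts) and at 3.69, 7.17 and 10.2 CPM in HFD 4, 30 and 38 (16, 126 and 181 counts). In HFD Vehicle 23, 50 and 55 it stood at 17.3, 24.6 and 22.2 CPM, and in HFD PCN 5, 11 and 27 at 1515, 927 and 307 CPM. The 4 groups did not overlap, in the order HFD, HFD Vehicle, Chow and HFD PCN from low to high. This and the separations named for the next genes are a description. The share of all genes without overlap was computed for single comparisons only and is given with them below. It was not computed for all 4 groups together or for HFD Vehicle against Chow. The highest library lay 411-fold above the lowest.

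Cyp2c55, a P450 known from colon and liver that oxidises arachidonic acid, stood at 70.6, 56.6 and 55.1 CPM in Chow 8, 17 and 19. In HFD 4, 30 and 38 it stood at 6.69, 7.17 and 6.99 CPM, and in HFD Vehicle 23, 50 and 55 at 2.97, 5.68 and 7.73 CPM (42, 107 and 38 counts). It stood at 614, 430 and 98.9 CPM in HFD PCN 5, 11 and 27. The HFD and HFD Vehicle libraries overlapped, all Chow libraries lay above both, and all HFD PCN libraries lay above Chow. The range from lowest to highest library was 207-fold.

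Cyp2c66 stood at 136, 136 and 129 CPM in Chow 8, 17 and 19 and at 61.4, 60.4 and 58.0 CPM in HFD 4, 30 and 38. It stood at 52.3, 69.1 and 92.0 CPM in HFD Vehicle 23, 50 and 55 and at 685, 562 and 275 CPM in HFD PCN 5, 11 and 27. The 3 libraries of Chow, and likewise those of HFD, lay close together, those of HFD Vehicle spread around the HFD level, and those of HFD PCN lay above all others. The range over the 12 libraries was 13.1-fold.

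Cyp2c65, the closest relative of Cyp2c66 by sequence, moved less. It stood at 287, 258 and 240 CPM in Chow 8, 17 and 19 and at 146, 195 and 193 CPM in HFD 4, 30 and 38. In HFD Vehicle 23, 50 and 55 it stood at 85.5, 186 and 231 CPM, and in HFD PCN 5, 11 and 27 at 607, 519 and 356 CPM. The HFD libraries lay below Chow without overlap, HFD Vehicle overlapped HFD, and HFD PCN lay above all others. The range was 7.10-fold.

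Cyp2c68 varied least, by 3.97-fold over the 12 libraries. It stood at 68.0, 59.4 and 70.9 CPM in Chow 8, 17 and 19, at 45.4, 60.5 and 58.6 CPM in HFD 4, 30 and 38, at 26.2, 57.7 and 64.3 CPM in HFD Vehicle 23, 50 and 55 and at 95.6, 104 and 75.8 CPM in HFD PCN 5, 11 and 27. The Chow, HFD and HFD Vehicle libraries overlapped, and the HFD PCN libraries lay above them. HFD Vehicle 23, the library with the lowest enterocyte markers, was the lowest of the 12 for Cyp2c55, Cyp2c65, Cyp2c66 and Cyp2c68 and was not for Cyp2c29.

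**Figure D1:**
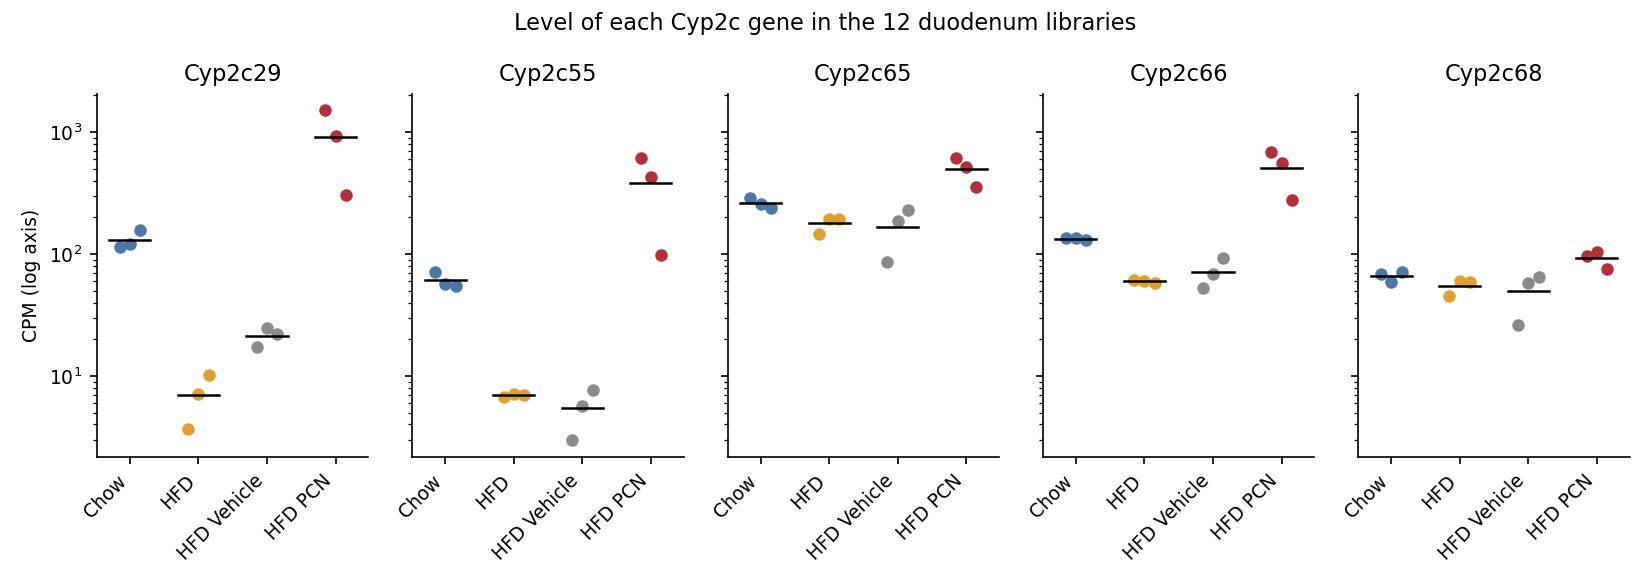
Level of each of the 5 genes in the 12 libraries in CPM on a log axis, with 1 point per library and a bar at the group mean. Cyp2c29 and Cyp2c55 span 411-fold and 207-fold from the lowest to the highest library, and Cyp2c68 spans 3.97-fold.

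The libraries of the HFD PCN group differed among themselves, and most for the genes with the widest range. HFD PCN 5 was the highest and HFD PCN 27 the lowest for Cyp2c29 (4.94-fold apart), Cyp2c55 (6.21-fold), Cyp2c66 (2.49-fold) and Cyp2c65 (1.71-fold). For Cyp2c68 the order was HFD PCN 11, 5 and 27, with a range of 1.37-fold. Cyp3a11, Ces2a, Ephx1, Cyp2b10, Abcb1a and Cyp2c38 had the same order as Cyp2c29, with HFD PCN 27 lowest. These orders are a description of 3 libraries.

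Between genes, levels were compared per kilobase of exon, since the exon lengths run from 1724 to 3061 bases. On chow Cyp2c65 was the most abundant of the 5 at 136 CPM per kb, followed by Cyp2c66 at 68.8 CPM per kb, with no overlap between the libraries of the 2 genes. Cyp2c29 (42.6 CPM per kb), Cyp2c68 (38.3) and Cyp2c55 (30.4) followed, and neighbours in that order overlapped. On the high-fat diet Cyp2c65 stayed first at 92.3 CPM per kb, Cyp2c68 (31.8) and Cyp2c66 (30.8) overlapped, and Cyp2c55 (3.48) and Cyp2c29 (2.29) came last without overlap. After vehicle the libraries of Cyp2c65 (86.8 CPM per kb), Cyp2c66 (36.6) and Cyp2c68 (28.7) overlapped in turn, above Cyp2c29 (6.98) and then Cyp2c55 (2.74). After PCN the 5 means were 299 CPM per kb for Cyp2c29, 261 for Cyp2c66, 256 for Cyp2c65, 191 for Cyp2c55 and 53.3 for Cyp2c68, and each neighbour in that order overlapped the next. The exon union of Cyp2c29 (3061 bases) is longer than the 1 transcript of it searched for shared stretches (1783 bases). Per kilobase of such transcripts, Cyp2c29 (3.94 CPM per kb) overlapped Cyp2c55 (3.48) in HFD and had the higher mean, and Cyp2c29 (73.2) overlapped Cyp2c66 (82.1) on chow, while Cyp2c29 (514) stayed first and Cyp2c68 last after PCN. In HFD, Cyp2c66 (36.8 CPM per kb) then lay above Cyp2c68 (31.8) without overlap. The places of Cyp2c29 and Cyp2c66 on the diet thus depend on the length used.

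The same shift can be read as the make-up of the summed Cyp2c RNA, again per kilobase. Cyp2c65 made up 42.9% ± 2.58 of it on chow, 57.3% ± 2.17 on the high-fat diet, 52.5% ± 4.50 after vehicle and 26.6% ± 7.84 after PCN (SD, n = 3 per group). Cyp2c29 made up 13.5% ± 2.63, 1.39% ± 0.541, 4.66% ± 1.34 and 26.1% ± 6.59 in the same order of groups. Cyp2c55 made up 9.61% ± 0.941, 2.19% ± 0.211, 1.67% ± 0.114 and 16.2% ± 5.82. Cyp2c68 went the other way, with 12.1% ± 1.0, 19.8% ± 0.599, 17.5% ± 1.39 and 5.80% ± 2.45. The mean share of Cyp2c66 stayed between 19.4% and 25.2% in the 4 groups. With the length of 1 transcript in place of the union of exons, Cyp2c29 made up 36.1% ± 7.93 and Cyp2c65 21.7% ± 7.17 after PCN. The first place by mean share there thus depends on the length used. It also differed between libraries with the union of exons. Cyp2c29 held more than Cyp2c65 in HFD PCN 5 (32.4% against 20.6%) and 11 (26.6% against 23.7%), and less in HFD PCN 27 (19.3% against 35.5%).

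**Figure D2:**
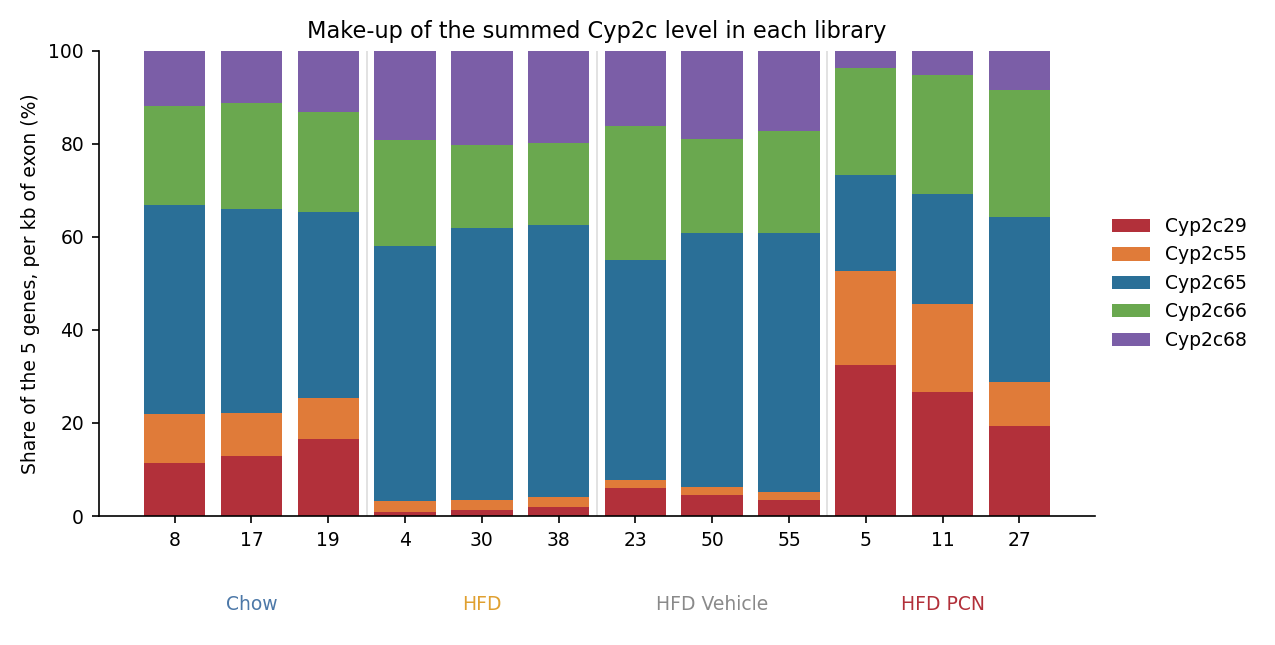
Share of each of the 5 genes in their summed CPM per kb, in percent, as a stacked bar for each of the 12 libraries. Cyp2c65 holds the largest mean share in Chow, HFD and HFD Vehicle (42.9%, 57.3% and 52.5%), and in HFD PCN its mean share of 26.6% lies beside 26.1% for Cyp2c29 and 25.2% for Cyp2c66.

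Ratios of the counts of 2 genes within a library do not depend on how libraries are scaled. Counts of Cyp2c65 stood to those of Cyp2c66 as 2.11, 1.90 and 1.85 in Chow 8, 17 and 19, as 2.38, 3.23 and 3.33 in HFD 4, 30 and 38, and as 1.63, 2.69 and 2.51 in HFD Vehicle 23, 50 and 55. In HFD PCN 5, 11 and 27 the ratio was 0.886, 0.925 and 1.29, below each of the other 9 libraries. If reads that both genes could have produced were counted for both, they would pull this ratio toward a common value. How such reads were counted is not known.

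The ratio of Cyp2c29 to Cyp2c55 was one of several that separated the uninjected from the vehicle-treated libraries of the diet. It was 0.552, 1 and 1.46 in HFD 4, 30 and 38 and 5.83, 4.34 and 2.87 in HFD Vehicle 23, 50 and 55, with no overlap. In Chow 8, 17 and 19 it was 1.63, 2.13 and 2.84, and in HFD PCN 5, 11 and 27 it was 2.47, 2.15 and 3.10. The ratio of Cyp2c65 to Cyp2c68 varied little by comparison, from 3.21 to 4.34 over the Chow, HFD and HFD Vehicle libraries and from 4.69 to 6.35 after PCN. Ratios of Cyp2c29 to Cyp2c65, Cyp2c66 and Cyp2c68 were also higher in HFD Vehicle than in HFD without overlap. Those of Cyp2c55 to Cyp2c65 and to Cyp2c66 were lower in HFD Vehicle without overlap, and the remaining pairs overlapped. How often pairs of other genes separate these groups was not computed.

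**Figure D3:**
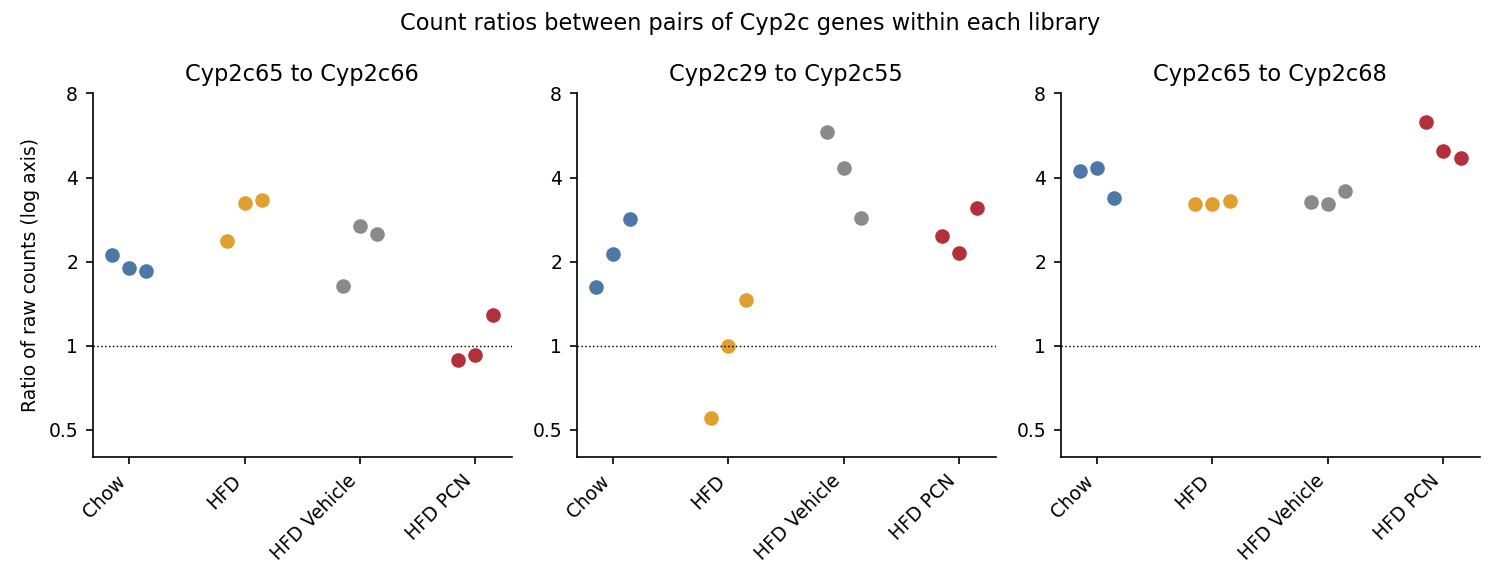
Ratio of the counts of 2 genes within each library, on a log axis, for 3 pairs of the Cyp2c genes, with 1 point per library in each group and a dotted line at a ratio of 1. The ratio of Cyp2c65 to Cyp2c66 lies between 0.886 and 1.29 in HFD PCN and between 1.63 and 3.33 in the other 9 libraries, and that of Cyp2c29 to Cyp2c55 separates HFD from HFD Vehicle. Some pairs that are not drawn also separate HFD from HFD Vehicle.

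The first comparison asks what a high-fat diet does to the duodenum, and it was one of those by which the genes were chosen. Cyp2c29 was 17.3-fold lower on HFD than on chow, with a log2 fold change of -4.12 (SE 0.29), Cyp2c55 8.59-fold lower (-3.10, SE 0.17) and Cyp2c66 2.21-fold lower (-1.15, SE 0.14). Cyp2c65 was 1.45-fold lower (-0.54, SE 0.18) and Cyp2c68 1.19-fold lower (-0.25, SE 0.16). Cyp2c29, Cyp2c55, Cyp2c65 and Cyp2c66 were lower in all 3 HFD libraries than in any Chow library, as were 8.16% of the 15278 genes tested. By edgeR's quasi-likelihood test with Benjamini-Hochberg adjustment over all genes, Cyp2c29, Cyp2c55 and Cyp2c66 were called at an adjusted p under 0.05, where 0.0589% of all genes were called lower and 0.00655% higher. Nothing is read from these counts, since this contrast served to choose the genes. The call of Cyp2c66 was lost without HFD 30, Chow 8, Chow 17 or Chow 19, with adjusted p of 0.0610, 0.117, 0.0729 and 0.0927, while its log2 fold change stayed between -1.17 and -1.11 over the 12 alternatives.

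The second comparison, also used to choose the genes, asks what PCN does on the high-fat diet against its vehicle. Cyp2c55 was 72.4-fold higher after PCN, with a log2 fold change of 6.18 (SE 0.74), and Cyp2c29 42.9-fold higher (5.42, SE 0.58). Cyp2c66 was 7.16-fold higher (2.84, SE 0.38), Cyp2c65 2.96-fold higher (1.57, SE 0.37) and Cyp2c68 1.87-fold higher (0.90, SE 0.32). The order of the 5 by size of difference was nearly that on the diet, with Cyp2c65 and Cyp2c68 last in both. All 5 were higher in each HFD PCN library than in any HFD Vehicle library, as were 9.84% of the 16110 genes tested. Cyp2c29, Cyp2c55 and Cyp2c66 were called by edgeR, where 0.0497% of all genes were called higher and 0.0124% lower, and again nothing is read from the count. None of the 5 was called by edgeR without HFD Vehicle 23, HFD Vehicle 50 or HFD PCN 11, Cyp2c29 alone was called without HFD PCN 5, and all 5 were called without HFD Vehicle 55, the library with the fewest counts. Without HFD Vehicle 23 and 50 together, the libraries high in Hsp90aa1, the log2 fold changes were 5.37 for Cyp2c29, 5.63 for Cyp2c55, 2.47 for Cyp2c66, 1.10 for Cyp2c65 and 0.52 for Cyp2c68, with an edgeR adjusted p of 0.997 for each.

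**Figure D4:**
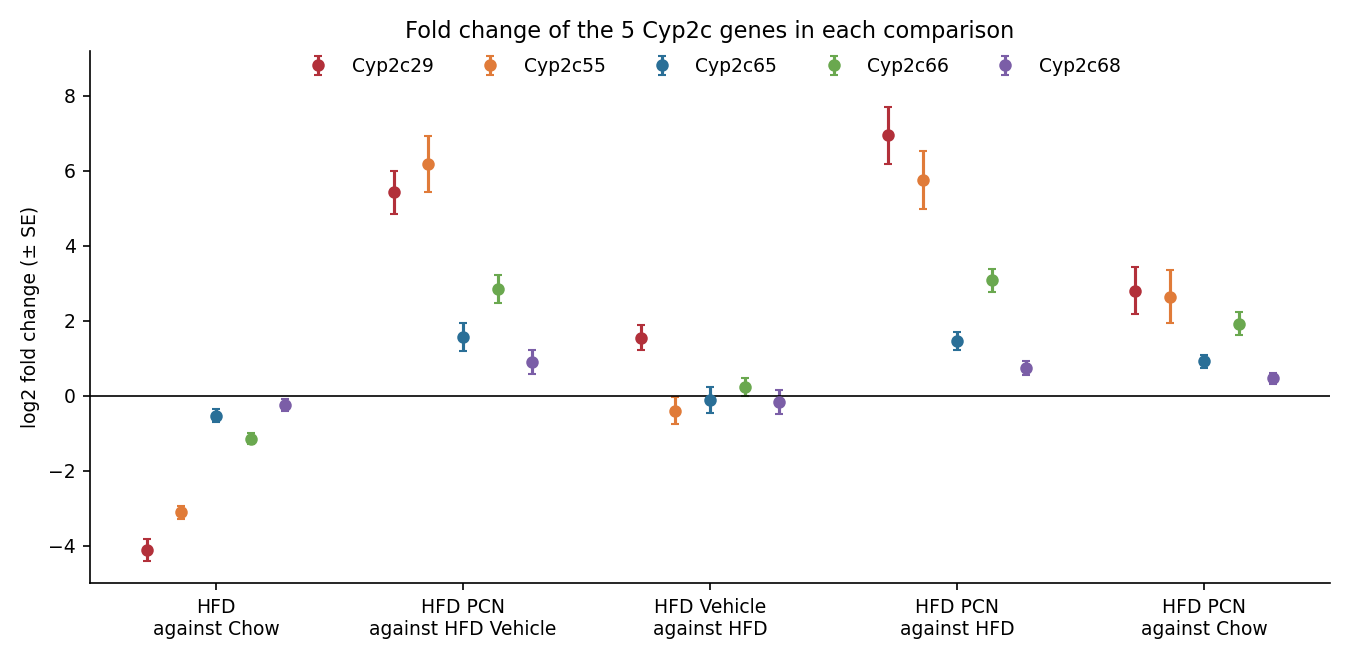
Log2 fold change of each of the 5 genes with its standard error as a bar in the 5 comparisons, from edgeR fits of the 6 libraries of each comparison. In both deposited comparisons Cyp2c29 and Cyp2c55 lie farthest from 0 (-4.12 and -3.10 on the diet, 5.42 and 6.18 after PCN) and Cyp2c68 nearest (-0.25 and 0.90).

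The other 3 comparisons joined the counts of both tables. They share libraries with the comparisons that chose the genes, so they add no independent samples. HFD Vehicle against HFD asks whether injection of the vehicle, 30% DMSO in corn oil, went with another level. Cyp2c29 was higher in all 3 HFD Vehicle libraries than in any HFD library, by 2.92-fold (log2 fold change 1.55, SE 0.34), as were 4.65% of the 16255 genes tested. Its edgeR adjusted p was 0.803 and its DESeq2 adjusted p 0.0450. The log2 fold change was -0.40 (SE 0.36) for Cyp2c55, 0.23 (SE 0.23) for Cyp2c66, -0.18 (SE 0.32) for Cyp2c68 and -0.11 (SE 0.34) for Cyp2c65, with overlapping libraries and edgeR adjusted p of 0.817 to 0.947. edgeR called none of the 5 and 0% of all genes in either direction, with 1 of the 5 and 953 genes at an unadjusted p under 0.05. DESeq2 called 32 genes and limma-voom 0. The signs of Cyp2c65 and Cyp2c68 turned without HFD Vehicle 23, to 0.21 and 0.13. Without HFD Vehicle 23 and 50 the log2 fold change of Cyp2c29 was 1.58, that of Cyp2c66 0.60, Cyp2c65 0.36, Cyp2c68 0.21 and Cyp2c55 0.13. The 2 groups stand in separate tables, and any difference in their handling cannot be told apart from the injection.

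HFD PCN against HFD sets mice injected with PCN against untreated mice on the same diet. These groups stand in separate tables, so PCN cannot be told apart from the injection, the vehicle or any difference in handling. Cyp2c66 rose 8.43-fold (log2 fold change 3.08, SE 0.31, edgeR adjusted p = 0.00161), Cyp2c65 rose 2.76-fold (1.47, SE 0.24, edgeR adjusted p = 0.0267) and Cyp2c29 rose 123-fold (6.94, SE 0.76, edgeR adjusted p = 0.0293). Cyp2c55 was 54.3-fold higher with an edgeR adjusted p of 0.0633 (log2 fold change 5.76, SE 0.77), and Cyp2c68 1.66-fold higher with one of 0.114 (0.73, SE 0.18). All 5 were higher in each HFD PCN library than in any HFD library, against 11.4% of the 15982 genes tested, and 0.244% of all genes were called higher and 0.0813% lower. The gene with the largest fold change of the 5 was not the one with the smallest p, and the HFD PCN libraries were closer together for Cyp2c66 (2.49-fold) than for Cyp2c29 (4.94-fold). None of the 5 was called by edgeR without HFD 4, with adjusted p of 0.0916 for Cyp2c66, 0.106 for Cyp2c65 and 0.210 for Cyp2c29. Only Cyp2c66 was called without HFD 30 or without HFD PCN 11, Cyp2c66 and Cyp2c29 without HFD PCN 5, and DESeq2 called all 5.

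HFD PCN against Chow asks whether the level after PCN on the diet lay at that on chow or beyond it. These groups also differ in injection and stand in separate tables, and these differences cannot be told apart from PCN. All 5 genes were higher in each HFD PCN library than in any Chow library, as were 9.08% of the 15300 genes tested. The log2 fold change was 2.80 (SE 0.62) for Cyp2c29, 2.65 (SE 0.72) for Cyp2c55, 1.92 (SE 0.30) for Cyp2c66, 0.91 (SE 0.19) for Cyp2c65 and 0.47 (SE 0.15) for Cyp2c68, or 6.98-fold, 6.26-fold, 3.78-fold, 1.88-fold and 1.38-fold. None of the 5 passed edgeR's test, with adjusted p of 0.0565 for Cyp2c66, 0.0714 for Cyp2c65, 0.213 for Cyp2c29, 0.234 for Cyp2c68 and 0.292 for Cyp2c55, while 0.261% of all genes were called higher and 0.0784% lower. All 5 had an unadjusted p under 0.05 by edgeR, beside 11.8% of all genes. DESeq2 called 4 (not Cyp2c68) and limma-voom called Cyp2c66. Without HFD PCN 27, the PCN library with the lowest levels, all 5 were called by edgeR, with adjusted p from 1.46e-05 for Cyp2c55 and Cyp2c66 to 0.0433 for Cyp2c68.

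Summed over the 5 genes, the level was 677, 630 and 651 CPM in Chow 8, 17 and 19 and 263, 330 and 327 CPM in HFD 4, 30 and 38. HFD Vehicle 23, 50 and 55 had 184, 343 and 417 CPM, and HFD PCN 5, 11 and 27 had 3517, 2542 and 1112 CPM. Because enterocyte markers differed between libraries, the sum was also divided by the summed CPM of the 12 enterocyte markers, a scale added after the data were seen. Per 1000 CPM of enterocyte markers the Cyp2c sum was 22.5, 22.5 and 19.0 CPM in Chow and 12.7, 9.43 and 8.21 CPM in HFD. It was 14.4, 11.6 and 11.3 CPM with vehicle, then 92.7, 72.3 and 29.1 CPM with PCN, with the libraries in the same order. HFD lay 2.13-fold below Chow in CPM and 2.11-fold below it per enterocyte marker. HFD PCN lay 7.60-fold above HFD Vehicle in CPM and 5.21-fold above it per enterocyte marker, and 7.80-fold and 6.40-fold above HFD. On this scale Cyp2c29 was at 1.35, 0.831 and 0.600 CPM in HFD Vehicle 23, 50 and 55, and between 0.178 and 0.257 CPM in HFD. Some separations seen in CPM were lost on this scale. Cyp2c65 overlapped between HFD and Chow (7.05 in HFD 4 against 6.98 in Chow 19) and between HFD PCN and Chow (9.31 in HFD PCN 27 against 9.57 in Chow 8). Cyp2c68 in HFD PCN 27, at 1.98, overlapped HFD Vehicle (2.05 in library 23), HFD (2.20 in library 4) and Chow (2.07 to 2.27). Cyp2c29, Cyp2c55 and Cyp2c66 kept the same separations on both scales in the 5 comparisons.

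**Figure D5:**
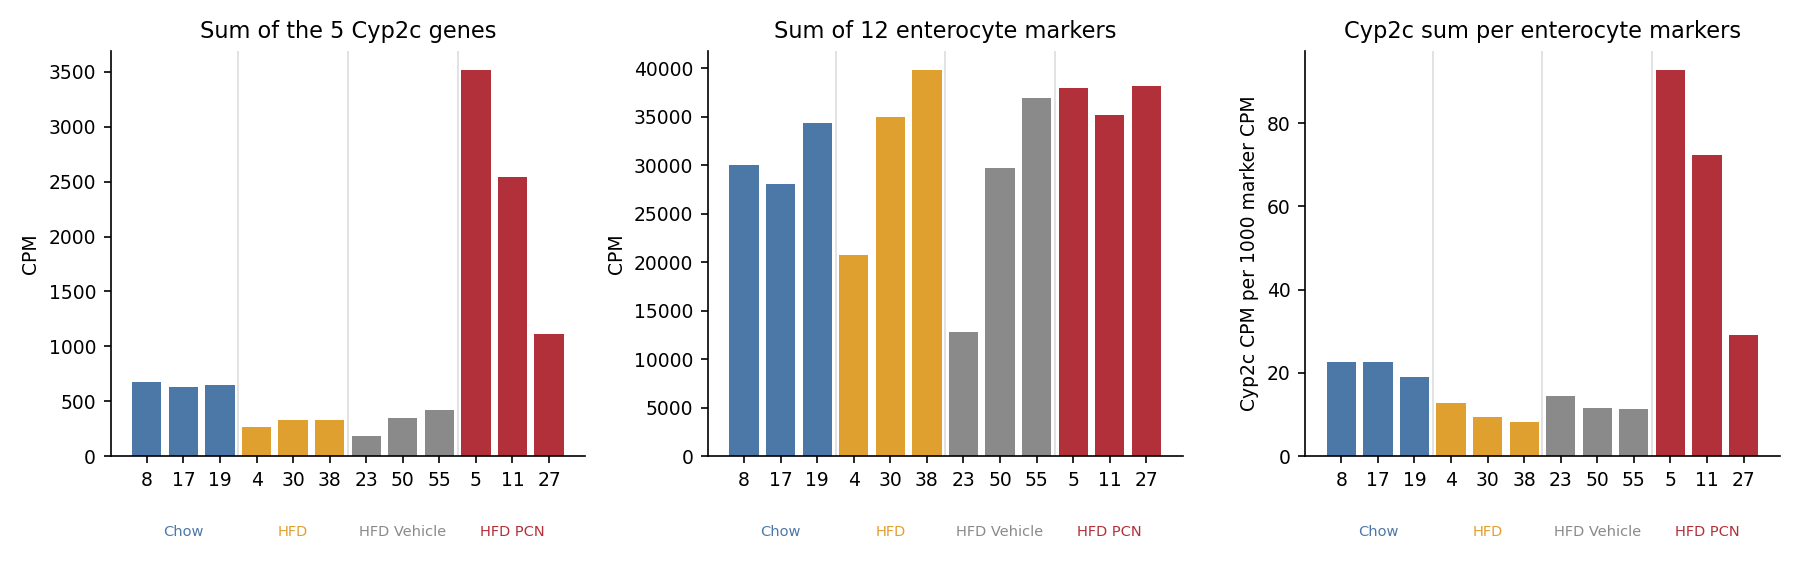
Summed CPM of the 5 Cyp2c genes (left), summed CPM of 12 enterocyte markers (middle) and Cyp2c CPM per 1000 CPM of those markers (right), with 1 bar per library, numbered as in the labels and coloured by group. For the sum, in the left and right panels, the HFD and HFD Vehicle libraries lie below Chow and the HFD PCN libraries above it, with HFD PCN 27 the lowest of the 3 at 1112 CPM.

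Another 11 Cyp2c symbols were listed for comparison, of which 3 or 4 passed the filter on low counts in each comparison. Cyp2c38, which lies next to Cyp2c29 on the opposite strand, was the most abundant of these. It stood at 13.7, 8.88 and 22.2 CPM in Chow 8, 17 and 19, at 3.46, 1.99 and 5.02 CPM in HFD 4, 30 and 38, at 8.19, 9.08 and 9.56 CPM in HFD Vehicle 23, 50 and 55 and at 26.0, 25.8 and 16.1 CPM in HFD PCN 5, 11 and 27. Its group order, HFD lowest and HFD PCN highest by mean, was that of Cyp2c29. By edgeR it rose in HFD PCN against HFD (log2 fold change 2.69, SE 0.33, adjusted p = 0.00725, and 0.111 without HFD 4) and was not called in HFD against Chow (-2.10, SE 0.41, adjusted p = 0.159) or HFD PCN against HFD Vehicle (1.34, SE 0.26, adjusted p = 0.200).

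Cyp2c23, an arachidonic acid epoxygenase known from kidney that lies outside the cluster at 44005022 to 44029208 on chromosome 19, stood between 1.86 and 6.78 CPM in the 12 libraries. Its log2 fold change was 0.14 (SE 0.35) in HFD against Chow and 0.36 (SE 0.44) in HFD PCN against HFD Vehicle. Cyp2c67, which lies between Cyp2c38 and Cyp2c68, stood between 0.716 and 2.42 CPM, with log2 fold changes of 0.00 (SE 0.42) and 0.10 (SE 0.39) in the same comparisons. The sign of both genes turned in alternatives of the HFD against Chow comparison. Cyp2c40 and Cyp2c70 reached at most 0.286 and 0.797 CPM. Cyp2c39, Cyp2c50 and Cyp2c54 stand in 1 of the tables only, and Cyp2c37 and Cyp2c69 were not analysed here. The listed symbol Cyp2c44 matched none of the Cyp2c entries annotated on chromosome 19, so it is not counted as a further gene.

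The pseudogene Cyp2c53-ps, whose annotation overlaps Cyp2c29, stood at 3.15, 3.58 and 7.11 CPM in Chow 8, 17 and 19, at 0.923, 0.512 and 1.69 CPM in HFD 4, 30 and 38, at 3.32, 4.62 and 2.85 CPM in HFD Vehicle 23, 50 and 55 and at 8.93, 8.60 and 4.59 CPM in HFD PCN 5, 11 and 27. It was named after its values were seen. As with Cyp2c29, the HFD libraries were the lowest and did not overlap those after vehicle. Of all genes tested, 4.65% were higher in HFD Vehicle than in HFD without overlap. Both lie on the same strand, and reads from the stretch they share cannot be told apart. Around the cluster, 9 genes of other families within 500 kb were tested. Their log2 fold changes ran from -0.56 to 0.39 in HFD against Chow and from -0.62 to 0.66 in HFD PCN against HFD Vehicle, with medians of 0.06 and 0.05.

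The genes of the receptors had small fold changes. Nr1i2, which encodes PXR, stood between 115 and 211 CPM in the 12 libraries, with log2 fold changes of 0.30 (SE 0.19) in HFD against Chow and 0.12 (SE 0.20) in HFD PCN against HFD Vehicle. Nr1i3, which encodes CAR, stood between 51.6 and 109 CPM, with 0.30 (SE 0.24) and 0.31 (SE 0.20). In the list of nuclear receptors and cofactors, 23 of 24 genes were tested and edgeR called none in any comparison, nor did DESeq2 or limma-voom. The number at an unadjusted p under 0.05 was 4 in HFD against Chow, 4 in HFD PCN against HFD Vehicle, 0 in HFD Vehicle against HFD, 7 in HFD PCN against HFD and 1 in HFD PCN against Chow. Over all genes tested the share at an unadjusted p under 0.05 was 10.3%, 17.9%, 5.86%, 18.2% and 11.8% in the same comparisons. The smallest p in HFD against Chow belonged to Nr0b2, the corepressor SHP (1.36), and Ncor1, a corepressor of nuclear receptors (-0.58), both as log2 fold changes. The value of Nr0b2 was 2.07 without Chow 17 and 0.92 without Chow 19, and edgeR called it in 1 of 12 alternatives, that without a filter on low counts (adjusted p = 0.00926, and up to 0.991 over the others).

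Other targets of PXR encode enzymes and transporters of drug disposal. The list was chosen with earlier results of these data known, so its counts are a description and nothing is read from them. Against the HFD group, which was not injected, the 22 tested genes had a median log2 fold change of 1.83. edgeR called 9 of them higher and none lower, where 0.244% of all genes were called higher. Examples are the carboxylesterase gene Ces2a (4.07, SE 0.39, edgeR adjusted p = 0.00161), Cyp3a11, the main CYP3A oxidase of the mouse (3.95, SE 0.43, edgeR adjusted p = 0.00214), and the glutathione transferase gene Gstm3 (2.51, SE 0.28, edgeR adjusted p = 0.00214). None of the 22 was called without HFD 4. Against Chow, 7 rose and none fell, beside 0.261% of all genes called higher, with a median of 1.32, among them Ces2a (3.07, SE 0.27, edgeR adjusted p = 0.00311), the efflux pump gene Abcb1a (1.67, SE 0.23, edgeR adjusted p = 0.0176) and Cyp3a44 (1.56, SE 0.25, edgeR adjusted p = 0.0284). That count ran from 1 to 14 when single libraries were left out. Of the 22 genes, 21 had positive log2 fold changes in HFD PCN against HFD Vehicle. By edgeR 21 had an unadjusted p under 0.05 there, beside 17.9% of all genes. Against HFD Vehicle, where 0.0497% of all genes were called higher, the 22 had a median of 1.63, and edgeR called Ces2a (3.83, SE 0.38), the carboxylesterase gene Ces2b (4.84, SE 0.58) and the glutathione transferase gene Gstm1 (3.25, SE 0.44), a count of 3 that ran from 0 to 18 when single libraries were left out and was 0 without HFD Vehicle 23 and 50 and 16 by DESeq2.

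On the high-fat diet the same 22 genes had a median log2 fold change of -0.40 against chow, and edgeR called Gstm1 alone (-1.07, SE 0.15, adjusted p = 0.0399), a call that, with single libraries left out, was kept only without HFD 38. DESeq2 called 5 of the 22 and limma-voom none. Over all genes edgeR called 0.0589% lower in that comparison. By edgeR 15 of the 22 were negative, and 7 of the 22 had an unadjusted p under 0.05, beside 10.3% of all genes. Cyp3a11 stood at 2356, 1860 and 1532 CPM in Chow 8, 17 and 19 and at 406, 729 and 530 CPM in HFD 4, 30 and 38, with an edgeR adjusted p of 0.0611. In HFD Vehicle 23, 50 and 55 it stood at 164, 517 and 1155 CPM and in HFD PCN 5, 11 and 27 at 11918, 9276 and 4653 CPM. In HFD Vehicle against HFD the median of the 22 was -0.02, and edgeR, DESeq2 and limma-voom called none of them. By edgeR 3 had an unadjusted p under 0.05, beside 5.86% of all genes. Ces2, Gstm and Cyp3a genes have close relatives too, so reads may be split among them. Over all genes tested, the median log2 fold change of the 5 comparisons lay between -0.012 and 0.0076.

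Among enzymes that make or open epoxides of fatty acids, microsomal epoxide hydrolase Ephx1 also rose after PCN. Ephx1 stood at 6.85, 15.7 and 17.7 CPM in HFD Vehicle 23, 50 and 55 and at 232, 207 and 104 CPM in HFD PCN 5, 11 and 27, without overlap. Of all genes tested, 9.84% were higher in HFD PCN than in HFD Vehicle without overlap. It rose 13.7-fold in HFD PCN against HFD Vehicle (log2 fold change 3.77, SE 0.43, edgeR adjusted p = 0.0255) and by a log2 fold change of 3.70 in HFD PCN against HFD (SE 0.30, edgeR adjusted p = 0.000859). The first call was lost without HFD Vehicle 50 or HFD PCN 11, with edgeR adjusted p of 0.344 and 0.113, and without HFD Vehicle 23 and 50 together (3.36, edgeR adjusted p = 0.816), and the second without HFD 4, with 0.0620. edgeR and limma-voom called 1 of the 18 tested members of that list in each comparison, for edgeR Ephx1, while DESeq2 called 1 in the first and 3 in the second, and the list's medians were 0.45 and 0.26. Over all genes edgeR called 0.0497% higher and 0.0124% lower in the first, and 0.244% and 0.0813% in the second. In HFD against Chow 17 members were tested, the median was -0.03 and edgeR called none, with 6 at an unadjusted p under 0.05, 2 called by DESeq2 and 0 by limma-voom. Over all genes 10.3% had an unadjusted p under 0.05 by edgeR in that comparison. The smallest p belonged to the epoxygenase genes Cyp2j9 (-1.60, SE 0.28, edgeR adjusted p = 0.108) and Cyp2j6 (-1.42, SE 0.33, edgeR adjusted p = 0.241), which also had negative log2 fold changes in HFD PCN against Chow (-0.97, SE 0.26, and -0.57, SE 0.20).

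Genes that release arachidonic acid or pass it to cyclooxygenases and lipoxygenases were not called by edgeR in any comparison, over 12 to 14 tested genes of 17. At an unadjusted p under 0.05 there were 3 in HFD against Chow, 3 in HFD PCN against HFD Vehicle, 1 in HFD Vehicle against HFD, 5 in HFD PCN against HFD and 1 in HFD PCN against Chow, beside shares over all genes of 10.3%, 17.9%, 5.86%, 18.2% and 11.8%. DESeq2 called 2 in HFD PCN against HFD and 0 in the others, and limma-voom none. The cyclooxygenase gene Ptgs1 had a log2 fold change of 0.73 (SE 0.21) in HFD against Chow and -0.77 (SE 0.25) in HFD PCN against HFD Vehicle. Hpgd, which inactivates prostaglandins, had -0.75 (SE 0.23) in HFD against Chow and 1.08 (SE 0.23, edgeR adjusted p = 0.0750) in HFD PCN against HFD.

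Of 15 genes for electron supply and heme, which every P450 needs, edgeR called only Cyb5a, which encodes cytochrome b5, in HFD PCN against HFD (1.70, SE 0.27, adjusted p = 0.0250), where 0.244% of all genes were called higher. That call was lost without HFD 4, HFD 30, HFD PCN 5 or HFD PCN 11, with edgeR adjusted p of 0.0663 to 0.154. Por stood between 194 and 441 CPM over the 12 libraries. Its log2 fold change was 0.30 (SE 0.23) in HFD against Chow, 0.40 (SE 0.25) in HFD PCN against HFD Vehicle and 0.71 (SE 0.14, edgeR adjusted p = 0.0565) in HFD PCN against Chow. The medians of the list were 0.01, 0.40 and 0.33 in those comparisons.

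As for enterocyte genes, Vil1, which encodes the microvillus protein villin, ranged from 1160 to 2349 CPM over the libraries, and Alpi, the intestinal alkaline phosphatase gene, from 860 to 4457 CPM, each lowest in HFD Vehicle 23. In HFD PCN against HFD Vehicle the log2 fold change was 0.17 (SE 0.31) for Vil1 and 0.99 (SE 0.44) for Alpi, and all 12 enterocyte markers had positive values with a median of 0.45. edgeR, DESeq2 and limma-voom called none of the 12, and by edgeR 2 had an unadjusted p under 0.05, beside 17.9% of all genes. In HFD Vehicle against HFD 11 of the 12 were negative, with a median of -0.25. Of the 12, 9 were positive in HFD PCN against HFD, with a median of 0.20. In HFD against Chow 7 of the 12 were positive, with a median of 0.12. The lowest was the aminopeptidase gene Anpep at -1.29 (SE 0.35, edgeR adjusted p = 0.294), farther from 0 than Cyp2c66. Its libraries did not overlap, and 8.16% of all genes tested were lower in HFD than in Chow without overlap. DESeq2 called 1 of the 12 there, and edgeR and limma-voom 0, with 1 at an unadjusted p under 0.05 by edgeR, beside 10.3% of all genes. Anpep was named after its values were seen. The 6 Paneth cell markers all had negative log2 fold changes in HFD PCN against HFD Vehicle, with a median of -2.04. By edgeR 6 had an unadjusted p under 0.05, beside 17.9% of all genes. DESeq2 called 5 of them there, and edgeR and limma-voom 0. In HFD Vehicle against HFD all 6 were positive, with a median of 2.12 and 6 at an unadjusted p under 0.05, beside 5.86% of all genes. In HFD PCN against HFD 5 were tested and 4 were negative, with a median of -0.20 and 0 at an unadjusted p under 0.05.

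Finally, the genes whose profiles over the 12 libraries lay closest to each Cyp2c gene were listed, by the root mean square difference of log2(CPM + 1) after each profile was centred on its mean. The search left out the 5 Cyp2c genes themselves and covered 9903 genes with a mean of at least 5 CPM, and a smaller value means a closer profile. The nearest to Cyp2c29 were Cyp3a11 (1.22), Ces2a (1.27) and Gstm1 (1.43), and the nearest to Cyp2c55 were the same 3 (0.815, 1.11 and 1.12). Cyp2c66 lay nearest to Gstm1 (0.195), Cyp3a25 (0.251) and Gstm2 (0.293), with Gstm1 at 77.98 ± 8.11 CPM in Chow, 36.8 ± 2.20 in HFD, 38.5 ± 16.9 in HFD Vehicle and 362 ± 167 in HFD PCN (SD, n = 3 per group). Cyp2c65 lay nearest to the glucuronosyltransferase gene Ugt2b34 (0.177), Gstm6 (0.205) and Adtrp (0.208), and Cyp2c68 to Lactb2 (0.125), Slc26a2 (0.129) and Cyb5b (0.130). Among the 5 themselves the closest pair was Cyp2c65 and Cyp2c68 (0.312), followed by Cyp2c65 and Cyp2c66 (0.602) and Cyp2c29 and Cyp2c55 (0.791), and the farthest was Cyp2c29 and Cyp2c68 (2.27). Cyp2c65 thus lay closer in profile to Cyp2c68 than to Cyp2c66, its near copy by sequence. Genes with a wide range have larger differences by this measure, and the 12 libraries share their depth and their processing across genes.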

How the data were processed

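The series holds 12 RNA-seq libraries of the duodenum, 3 per group. The authors deposited raw read counts per gene in 2 tables, of Chow and HFD and of HFD Vehicle and HFD PCN, with 28066 and 28731 genes, of which 26121 stand in both. The submitters' processing notes name GRCm38 (mm10) and the tools HISAT2, HTSeq and DESeq2, with no version of any. Annotation release, strand setting and read length are not given in the sources used here. Comparison columns that the authors added to the counts were not used here. No count column was left without a sample.

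Each comparison was fitted on its 6 libraries over all genes with edgeR 4.0.16 in R 4.3.3 (filterByExpr, TMM, robust quasi-likelihood F-test), with Benjamini-Hochberg adjustment over all genes tested and a call at an adjusted p under 0.05. Comparisons across tables used genes in both, and a gene missing from a table was never taken as 0. Standard errors are approximate, from the size of the log2 fold change over the root of the F statistic. CPM used TMM factors over all 12 libraries, and lengths were the union of exons in GENCODE M21. Replicate libraries differed beyond sampling noise, with 30.47 to 213 for the chi-square over its degrees of freedom. The scripts were tested on simulated data. Alternatives were DESeq2 1.42.0, limma-voom (limma 3.58.1), RLE factors, no filter, a fit of all 12 libraries, single libraries left out, HFD Vehicle 23 and 50 (high in Hsp90aa1) left out together, and genes like ribosomal RNA left out.

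The 5 Cyp2c genes, the gene lists and the tests were chosen with earlier results of these data known. Named in every case were the 5 genes, Nr1i2, Nr1i3, Cyp3a11, Por, Ephx1, Vil1 and Alpi, and other Cyp2c genes with a mean of at least 1 CPM. Of each other pathway list up to 3 called genes with the smallest p in a comparison were eligible, or 2 where none was called, and for each of the 5 genes the 3 closest profiles, leaving out predicted genes, pseudogenes and immune receptor segments. One result that this rule would name is not reported here.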

Additional observations from a re-analysis of the deposited data

How the results depend on the processing

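No paired analysis was possible because the groups share no replicate numbers in the labels. Over the 5 Cyp2c genes, 310 log2 fold changes were recomputed under alternatives, of which 305 kept their direction, 32 lost a call and 24 gained one. All 5 reversals were in HFD Vehicle against HFD: without HFD Vehicle 23 and 50 together Cyp2c55 was 0.13, Cyp2c65 0.36 and Cyp2c68 0.21, and without single libraries Cyp2c65 ran from -0.41 to 0.21 and Cyp2c68 from -0.41 to 0.13, both highest without HFD Vehicle 23. For each reversal and each count below the cause was not tested, and with 2 libraries left out HFD Vehicle has a single library, assumed to vary like the others.

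The number of the 5 called was 3 in HFD against Chow, 1 (Cyp2c29) in the fit of all 12 libraries, where Cyp2c55 had an adjusted p of 0.249 by edgeR, and 2 to 3 without single libraries. In HFD PCN against HFD Vehicle it was 3, 4 by DESeq2 and without a filter, 0 without HFD Vehicle 23 and 50, 1 without genes like ribosomal RNA, and 0 to 5 without single libraries. In HFD Vehicle against HFD it was 0 by edgeR, 1 by DESeq2, and 0 without any single library. In HFD PCN against HFD it was 3, 5 by DESeq2, and 0 to 4 without single libraries. In HFD PCN against Chow it was 0, 4 by DESeq2, 1 by limma-voom (Cyp2c66), 1 without a filter (Cyp2c65), 1 in the fit of all 12 libraries (Cyp2c66), and 0 to 5 without single libraries.

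Other genes whose log2 fold change turned were these. In HFD against Chow, Cyp2c67 gave -0.013 by DESeq2, -0.00097 with RLE factors, -0.015 in the fit of all 12 libraries and -0.29 to 0.35 without single libraries, Cyp2c23 -0.10 to 0.48 and Alpi -0.044 to 0.50 without single libraries. For HFD PCN against HFD Vehicle, Cyp2c67 gave -0.42 without HFD Vehicle 23 and 50 and, without single libraries, -0.052 to 0.34, and Vil1 -0.032 to 0.31. In HFD Vehicle against HFD without HFD Vehicle 23 and 50, Cyp2c23 gave -0.34, Cyp2c67 0.46, Ephx1 0.33, Hmox1 -1.79 and Fech 0.047; by limma-voom Cyp2c23 gave -0.041 and Cyp3a11 -0.10, and without a filter Por gave -0.0034. In the same comparison without single libraries, Cyp2c23 ran from -0.53 to 0.32, Cyp2c67 from -0.31 to 0.14, Cyp3a11 from -0.73 to 0.57, Por from -0.22 to 0.23 and Ephx1 from -0.31 to 0.24. For HFD PCN against HFD, Vil1 gave 0.024 by limma-voom and -0.30 to 0.046 without single libraries, where Nr1i2 ran from -0.12 to 0.12, Nr1i3 up to 0.19 and Cyp2c67 down to -0.062. For HFD PCN against Chow, Cyp2c67 ran from -0.26 to 0.39 and Vil1 down to -0.013 without single libraries. Depth limits the low values: Cyp2c29 rests on 16 counts in HFD 4 and Cyp2c55 on 29.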
